A study of Homo sapiens with 3 samples.

Results

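The regions described here are the peaks of tagged wild-type MECOM that lay beside a gene, more than 1 kb and at most 10 kb from it. They were taken from the annotated peak list of the wild-type library as the peaks placed upstream or downstream of their assigned gene with a shortest distance over 1000 and at most 10000 bp. Of 3462 peaks in the list, 3419 had an assigned gene, and 410 of these met the rule. The upstream group held 257 peaks (7.52% of annotated peaks, exact 95% binomial interval 6.66 to 8.45). The downstream group held 153 peaks (4.47%, 3.81 to 5.22).

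MECOM, also called EVI1, is a zinc finger transcription factor of blood stem cells that is overexpressed in some myeloid leukaemias. Its N-terminal zinc fingers recognise GATA-like DNA and its C-terminal fingers recognise ETS-like DNA. Regions a few kilobases from a gene are where many enhancers lie, but a position beside one gene can also be the body or the start of a neighbour. The data came from chromatin immunoprecipitation with sequencing (ChIP-seq) in HEK293T, a human embryonic kidney line that is not a blood cell. The 3 groups of 1 library each were cells given the empty pMYS-IG vector, wild-type MECOM or R750W MECOM, and an antibody to the AM tag, a short peptide fused to MECOM, was used in all of them. The introduced MECOM was expressed from a retroviral vector, so its level is that of the vector and not of a blood cell. Only the wild-type list was examined, so nothing below compares groups or has a replicate, and peaks that an antibody to the tag would give in vector cells were not analysed here.

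Fold enrichment is the authors' ratio of fragments at a peak to the local background, with 1 added to both when solved here. It was 5.04 at the median upstream peak (quartiles 4.34 and 5.93, range 2.57 to 10.8) and 4.83 at the median downstream peak (4.24 and 5.64, range 2.21 to 8.79), against 4.82 over all peaks. The median upstream peak rested on 17 fragments and the median downstream peak on 16, over a median background of 2.37 fragments in both groups and 2.92 in the whole list. The medians of the groups differed by 0.22 fold. No test of that difference was made, because peaks of 1 library are not replicates. Of the upstream peaks, 15 (5.84%) had a 95% Poisson interval of fold wholly above the list median, and of the downstream peaks 10 (6.54%), against 5.46% of all peaks. Both shares were near that of the list. Median widths were 383 bp upstream and 397 bp downstream.

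The place of these peaks among RefSeq genes was examined next, since the choice of peaks used only the gene that the deposited table assigned. Of the upstream peaks, 130 (50.6%, 44.3 to 56.9) overlapped the span of another RefSeq gene by at least 1 bp. Of these, 84 (32.7%, 27.0 to 38.8) lay over a protein-coding gene and 46 over a non-coding gene or pseudogene alone. Downstream, 85 of 153 (55.6%, 47.3 to 63.6) overlapped another gene, 51 of them (33.3%, 25.9 to 41.4) a protein-coding one. The share was 58.8% (53.0 to 64.4) for peaks over 10 kb upstream, an interval that overlaps that of the nearer ones. In 55 upstream and 39 downstream cases the overlapped protein-coding gene also covered part or all of the assigned gene. Cases where it contained the whole assigned gene were not counted apart. The RefSeq span of the assigned gene itself was overlapped by 11 upstream peaks (4.28%, 2.16 to 7.53) and 1 downstream peak. A RefSeq gene other than the assigned one was closer to the peak than the assigned gene for 180 upstream peaks (70.0%, 64.0 to 75.6) and 120 downstream peaks (78.4%, 71.1 to 84.7). Upstream, this share was 57.1% within 1 kb and 89.7% over 10 kb. Downstream it was 66.7% and 82.1%. The assigned gene could be matched to a RefSeq entry for 134 upstream and 38 downstream peaks, and an unmatched gene may appear in RefSeq under another identifier and be counted as another gene. Among matched genes alone, 42.5% of upstream peaks (34.0 to 51.4) and 42.1% of downstream peaks (26.3 to 59.2) overlapped another gene, and another gene was closer for 61.2% and 63.2%.

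**Figure D1:**
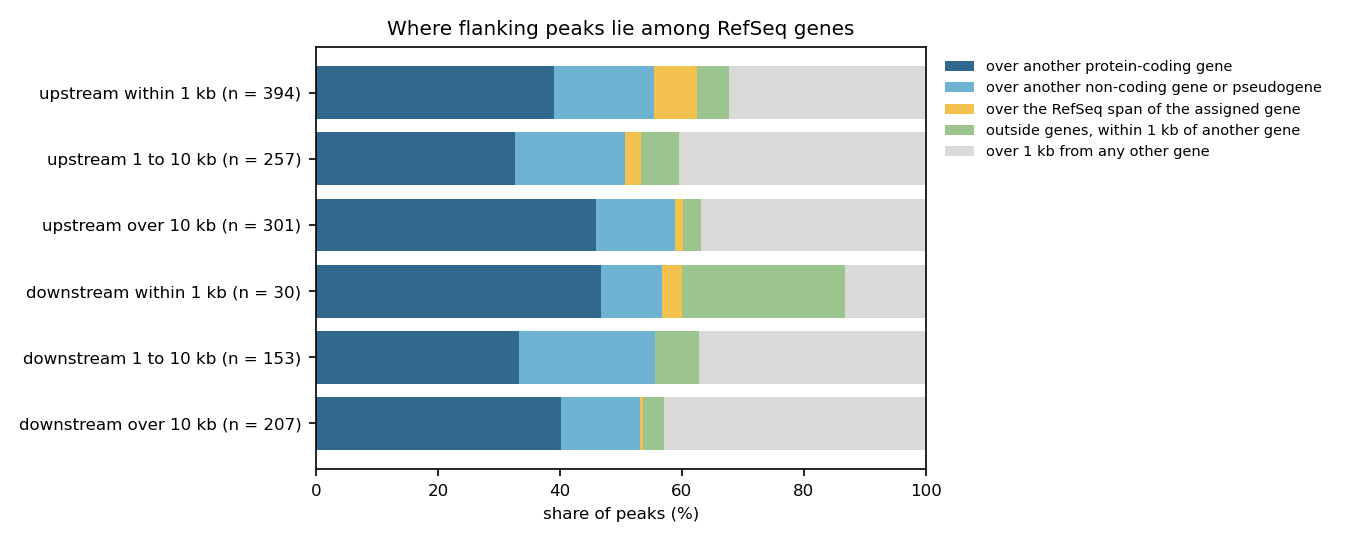
Share of flanking peaks (horizontal axis, %) in each place among RefSeq genes, by direction and distance from the assigned gene; each bar is 1 class of peaks and its colours add to 100%. Of the peaks 1 to 10 kb away, 40.5% upstream and 37.3% downstream lay over 1 kb from any other gene.

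Some of these peaks covered DNA just before a RefSeq gene start. A promoter window, here the RefSeq stretch from 250 bases before to 50 bases after a start (GRCh38.p14), was overlapped by 27 upstream and 16 downstream peaks. The start of another gene lay within a peak at 14 upstream peaks (5.45%, 3.01 to 8.97) and 11 downstream peaks (7.19%, 3.64 to 12.5). Upstream, this share was 9.39% within 1 kb and 10.3% over 10 kb. Downstream it was 3.33% and 5.80%. At 3 upstream peaks the RefSeq start of the assigned gene itself lay within the peak, so the deposited table and RefSeq placed that start differently. The stretches below, chosen after their values were seen, show the bases before a start that a peak covered. They are the cases with a named gene and a high peak, a member of the PRDM family of MECOM, a stretch with a pair of ETS-like motifs and a stretch with a GATA motif. Each is written 5′ to 3′ on the strand of the gene, and capitals mark a match to any motif listed in the paragraph after the sequences.

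FAM222B, chr17:28812472-28812605, minus strand, from a downstream peak of 8.16-fold: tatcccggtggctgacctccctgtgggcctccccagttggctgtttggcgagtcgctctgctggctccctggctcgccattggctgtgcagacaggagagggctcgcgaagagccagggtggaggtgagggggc
MEIS3, chr19:47422234-47422483, minus strand, from an upstream peak of 8.13-fold: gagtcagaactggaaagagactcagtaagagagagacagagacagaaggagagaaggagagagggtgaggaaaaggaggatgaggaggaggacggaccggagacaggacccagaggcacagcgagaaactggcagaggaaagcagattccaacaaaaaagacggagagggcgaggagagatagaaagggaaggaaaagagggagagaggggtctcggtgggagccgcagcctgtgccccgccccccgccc
HOXA-AS2, chr7:27121823-27121918, plus strand, from an upstream peak of 6.94-fold: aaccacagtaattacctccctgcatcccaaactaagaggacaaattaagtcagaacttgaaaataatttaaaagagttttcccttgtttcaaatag
GRIK2, chr6:101393458-101393707, plus strand, from an upstream peak of 6.30-fold: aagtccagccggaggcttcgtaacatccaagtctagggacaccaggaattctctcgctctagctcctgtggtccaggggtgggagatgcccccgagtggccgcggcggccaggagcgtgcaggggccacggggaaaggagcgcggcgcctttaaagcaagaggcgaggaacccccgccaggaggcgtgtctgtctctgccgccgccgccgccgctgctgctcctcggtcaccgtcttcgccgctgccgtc
IFT46, chr11:118565932-118566075, minus strand, from a downstream peak of 5.93-fold: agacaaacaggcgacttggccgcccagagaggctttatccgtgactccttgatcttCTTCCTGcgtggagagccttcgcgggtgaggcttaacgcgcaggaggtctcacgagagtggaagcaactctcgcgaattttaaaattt
SLC39A8, chr4:102345254-102345374, minus strand, from a downstream peak of 5.30-fold: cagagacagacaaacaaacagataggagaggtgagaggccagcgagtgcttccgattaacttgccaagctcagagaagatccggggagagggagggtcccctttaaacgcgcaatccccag
MRPL34, chr19:17305403-17305580, plus strand, from an upstream peak of 5.05-fold: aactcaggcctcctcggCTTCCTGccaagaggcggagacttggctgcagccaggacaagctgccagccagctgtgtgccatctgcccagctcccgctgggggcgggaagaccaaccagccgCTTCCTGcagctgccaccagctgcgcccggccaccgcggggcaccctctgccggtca
PRDM8, chr4:80197253-80197502, plus strand, from an upstream peak of 4.79-fold: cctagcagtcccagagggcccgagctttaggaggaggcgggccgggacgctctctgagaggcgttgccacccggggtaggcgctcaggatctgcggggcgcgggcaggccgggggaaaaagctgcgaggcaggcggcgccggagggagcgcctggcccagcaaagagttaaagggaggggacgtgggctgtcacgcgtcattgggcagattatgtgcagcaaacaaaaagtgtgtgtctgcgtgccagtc
LOC124904173, chr1:47507868-47508117, minus strand, from a downstream peak of 4.75-fold: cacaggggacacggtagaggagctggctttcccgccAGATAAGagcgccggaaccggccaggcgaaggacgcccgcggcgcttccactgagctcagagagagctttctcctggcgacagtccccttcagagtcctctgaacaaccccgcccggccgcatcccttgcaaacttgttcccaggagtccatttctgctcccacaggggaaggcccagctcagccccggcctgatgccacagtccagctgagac

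At MEIS3, a homeobox gene of the TALE class, and GRIK2, a kainate receptor gene, the peak covered the whole promoter window of the gene it had been assigned to, at 2333 and 4754 bp upstream of the deposited gene. The stretch before MEIS3 was 57.6% G and C with 9 CpG, and that before GRIK2 was 68.0% with 25 CpG. FAM222B, IFT46, an intraflagellar transport gene, and SLC39A8, a zinc and manganese transporter gene, had their starts under peaks that the table assigned to Ensembl genes without a symbol of 379, 891 and 300 bp. PRDM8, a PRDM family repressor of neural development, had its start under a peak assigned to ENSG00000248719, and the start of its antisense partner PRDM8-AS1 lay under the same peak. MRPL34, a mitochondrial ribosome gene, was covered up to 73 bases before its start by a peak assigned to DDA1. The peak over the start of HOXA-AS2, an antisense RNA of the HOXA cluster, also overlapped HOXA3 and had been assigned to HOXA-AS3, 7884 bp away. Its stretch was 33.3% G and C and held 0 CpG.

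Both strands of the whole windows were searched for 10 motifs. These were the GATA motif AGATAAG with the GATAAG it contains, the sequences GACAAGATA and then GAAGATGAG reported for the zinc fingers of MECOM, the ETS forms CTTCCGG and also CTTCCTG with the longer CCGGAAGT (whose reverse complement shares bases with the first form), the AP-1 motif TGANTCA, the E-box CACGTG and the CRE motif TGACGTCA. Peaks 1 to 10 kb from a gene overlapped 51 windows, and the ETS-like CTTCCTG was in 11 of these (21.6%, exact 95% interval 11.3 to 35.3), in 12.6% of the 1564 windows under any peak and in 12.7% of all 35116 windows. CTTCCGG, the ETS form with CpG, was in 7 (13.7%), 16.7% and 10.3%. CACGTG was in 7.84%, 8.18% and 7.26%, and TGACGTCA in 3.92%, 3.71% and 1.85%. The longer ETS form CCGGAAGT was in 3.92%, 6.91% and 4.14%. The GATA motif AGATAAG was in 2 (3.92%, 0.48 to 13.5), 1.15% and 2.68%, and the shorter GATAAG in 3.92%, 3.26% and 6.36%. GACAAGATA and GAAGATGAG were each in 0 of the 51 windows, which allows a share of up to 5.88% by the limit of 3 counts and 6.98% by the exact 95% interval, and in 0.0968% and 0.347% of all windows. TGANTCA was in 7.84%, 4.86% and 7.71%. Median G and C content was 64.3% in the 51 windows, 66.3% under any peak and 58.7% in all. Windows under 1 peak share bases, bases of the peaks outside these windows were not read, and none of these shares was tested.

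Upstream peaks were densest near the gene. Of the 257, 67 (26.1%) lay over 1 and at most 2 kb away, and 165 (64.2%) within 5 kb. Downstream peaks were spread more evenly, with 16 (10.5%) in the first of these ranges and 76 (49.7%) within 5 kb. Median fold was 4.92 within 5 kb and 5.16 beyond it upstream, and 4.83 and 4.85 downstream.

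**Figure D2:**
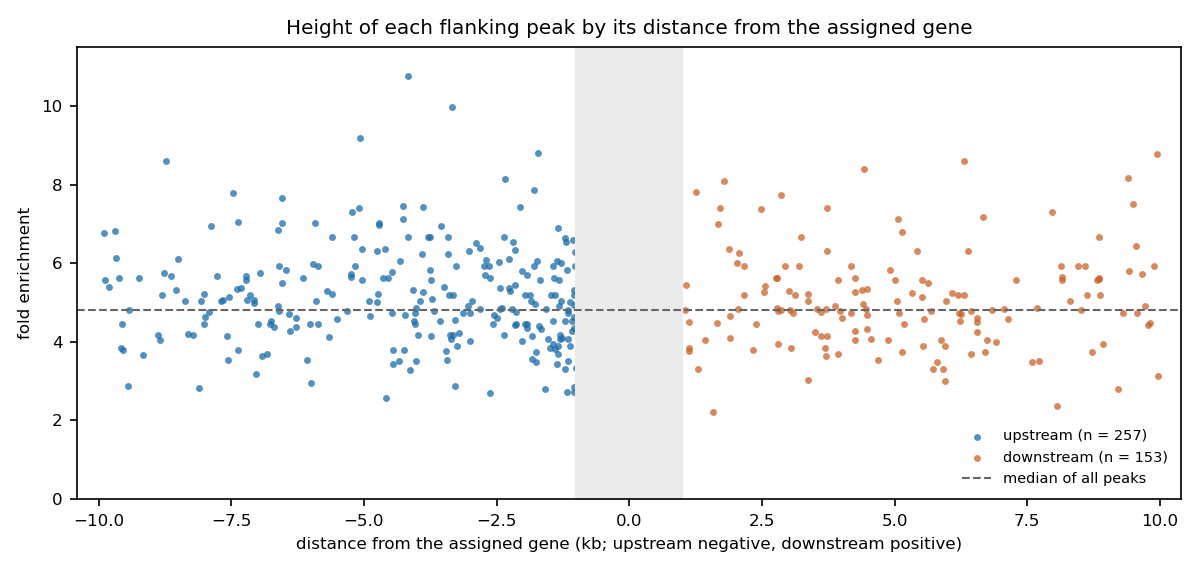
Fold enrichment (vertical axis) of each flanking peak by its distance from the assigned gene (horizontal axis, kb, upstream negative); points are peaks, the dashed line is the median of all peaks and the grey band is the excluded first kilobase. Upstream points crowd toward the gene, and heights scatter around the dashed line at 4.82 on both sides.

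The genes assigned downstream peaks were short at every distance. Their median length was 674 bp (quartiles 191 and 3393) at 1 to 10 kb, 388 bp within 1 kb and 743 bp over 10 kb. It was 5688 bp (675 and 30055) for upstream peaks at 1 to 10 kb and 23314 bp over all peaks with a gene. Genes of at most 200 bp, the size of small RNA genes and short fragments, took 39 downstream peaks (25.5%) and 32 upstream peaks (12.5%), against 221 (6.38%) in the whole list. A symbol was missing for 110 downstream peaks (71.9%, 64.1 to 78.9) and 117 upstream peaks (45.5%, 39.3 to 51.8). Downstream, the intervals at other distances overlapped this one, at 73.3% within 1 kb (54.1 to 87.7) and 78.3% over 10 kb (72.0 to 83.7). A symbol was missing for 71 of the 394 peaks within 1 kb upstream (14.4 to 22.2%). The upstream share was 61.1% (55.4 to 66.7) over 10 kb, against 27.6% over all annotated peaks. The table marks its assignments NearestLocation, and the part of that rule in these lengths was not tested. Median folds with and without a symbol were 5.02 and 5.18 upstream and 5.15 and 4.82 downstream.

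**Figure D3:**
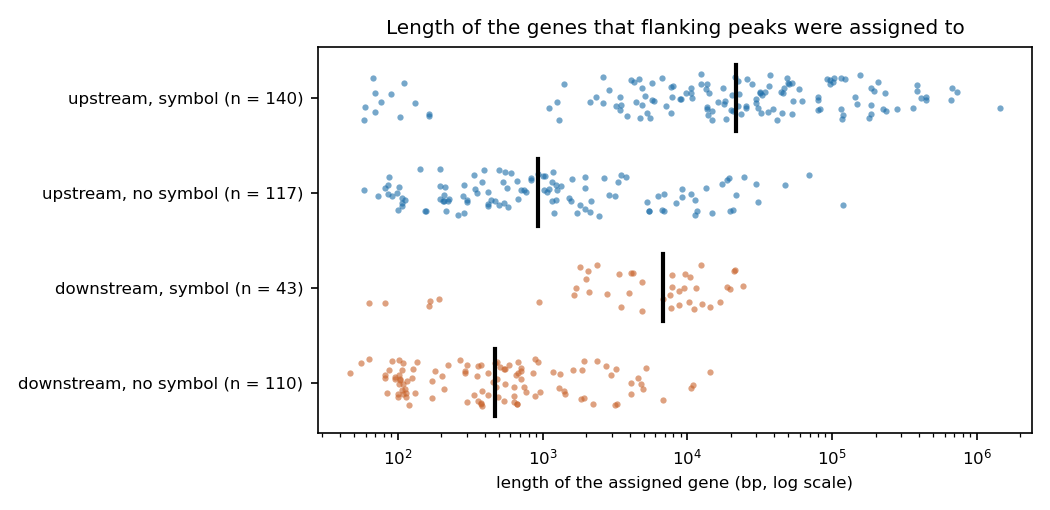
Length of the assigned gene (horizontal axis, bp, log scale) for each flanking peak, by direction and by whether the gene has a symbol; points are peaks, spread vertically for view, and black bars are medians. Genes without a symbol had medians of 934 bp upstream and 473 bp downstream, and genes with one 21798 and 6791 bp.

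The highest upstream peak lay 4164 bp from GABRR3, a GABA receptor subunit gene, on chromosome 3 from 98039468 to 98039814. Its 28 fragments gave 10.8-fold (95% Poisson interval 7.27 to 15.4), and 90 of the other 256 upstream peaks had intervals wholly below its own. A peak 3337 bp upstream of ENSG00000203620 on chromosome 1 from 31858905 to 31859436 reached 9.99-fold (6.75 to 14.3). ENSG00000260011 on chromosome 17 followed at 9.19-fold on 30 fragments. The peak 1728 bp upstream of MKLN1, which encodes muskelin, a subunit of the CTLH ubiquitin ligase, reached 8.79-fold (5.76 to 12.9). It overlapped the non-coding gene LINC-PINT and lay 400 bp from the start of that gene. SP1, a widely expressed zinc finger activator, had a peak 8723 bp upstream on chromosome 12 from 53370614 to 53371453 (8.61-fold, 5.64 to 12.6), over 1 kb from any other RefSeq gene. The MEIS3 peak came next at 8.13-fold (5.23 to 12.1). A peak upstream of ENSG00000229862 at 7.86-fold lay 465 bp from the start of EEF1A1, the gene of translation elongation factor 1 alpha.

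The rest of the 15 highest upstream peaks ran from 7.12 to 7.79-fold. They included those of DPP7, a peptidase gene (7.66-fold, 6540 bp), and PSG5, a pregnancy-specific glycoprotein gene (7.41-fold, 5089 bp). Another RefSeq gene was closer to each, LOC124902353 to the DPP7 peak and PSG4, within 1 kb, to the PSG5 peak. The peak assigned to C11orf58 (7.31-fold) lay within SOX6, a transcription factor gene of erythroid and cartilage cells. The peak assigned to THTPA, a thiamine triphosphatase gene (7.12-fold), lay 38 bp from the start of ZFHX2. The others belonged to ENSG00000224884, ENSG00000280427, ENSG00000277186 and ENSG00000258593. All 14 pairs of neighbours in this order had overlapping intervals, and no peak of the 15 had an interval wholly below that of GABRR3, so these peaks could not be ranked at this depth.

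The highest downstream peak, 2905 bp wide and the widest of the 410, lay 9939 bp past ENSG00000276266 on chromosome 9 from 40598409 to 40601313, over the non-coding gene LOC107984006 (8.79-fold, 5.85 to 12.7, 26 fragments). Peaks at ENSG00000235355 (8.39-fold) and ENSG00000235893 (7.74-fold) were also on chromosome 9, at 63041338 to 63041747 and 65813021 to 65814070. How uniquely reads could be placed at these chromosome 9 peaks was not examined. ENSG00000231705 on chromosome 10 had a peak of 8.60-fold (5.82 to 12.3), over 1 kb from any other gene. The FAM222B start peak described above, assigned to ENSG00000243053, reached 8.16-fold (5.19 to 12.3). ENSG00000238610, a gene of 63 bp on chromosome 6, had a peak of 8.10-fold (5.44 to 11.7) that lay nearer to the histone gene H2BC17.

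Several high downstream peaks lay over another protein-coding gene. The peak at ENSG00000262313 (7.50-fold, 5.62 to 9.82) lay within RPTOR, which encodes the mTORC1 subunit raptor, and rested on 51 fragments over a background of 5.93. CROCC2, SYNM, a gene of the intermediate filament protein synemin, and KLF12, a repressor gene, held the peaks assigned to ENSG00000223991 (7.41-fold), ENSG00000261054 (7.11) and ENSG00000206617 (7.01). The peak at ENSG00000225217 (7.42-fold) overlapped the leucine transfer RNA gene TRL-CAA6-1. Genes with a symbol among the 15 were GPR84, a receptor gene of myeloid cells (7.39-fold, 2489 bp), INSIG1, a brake on sterol synthesis (7.29-fold, 7966 bp), and LOC102724488 (7.18-fold), whose peak overlapped ANXA8 and the start of LOC102724593. ANXA8, like PSG5 above, belongs to a family of closely related copies, so these peaks are uncertain. By RefSeq, the GPR84 peak overlapped the span of GPR84 itself and the antisense gene GPR84-AS1. The INSIG1 peak overlapped the non-coding gene LOC105375592. All 14 neighbouring pairs had overlapping intervals. Other RefSeq genes were overlapped by 11 of the 15 highest downstream peaks and 6 of the 15 highest upstream. The shares of all peaks 1 to 10 kb away were 55.6% and 50.6%. Median fold downstream was 4.85 over another protein-coding gene, 4.77 over a non-coding gene or pseudogene and 5.04 over 1 kb from any other gene. Upstream these medians were 4.88, 5.52 and 5.05. A link of height with place was not tested.

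**Figure D4:**
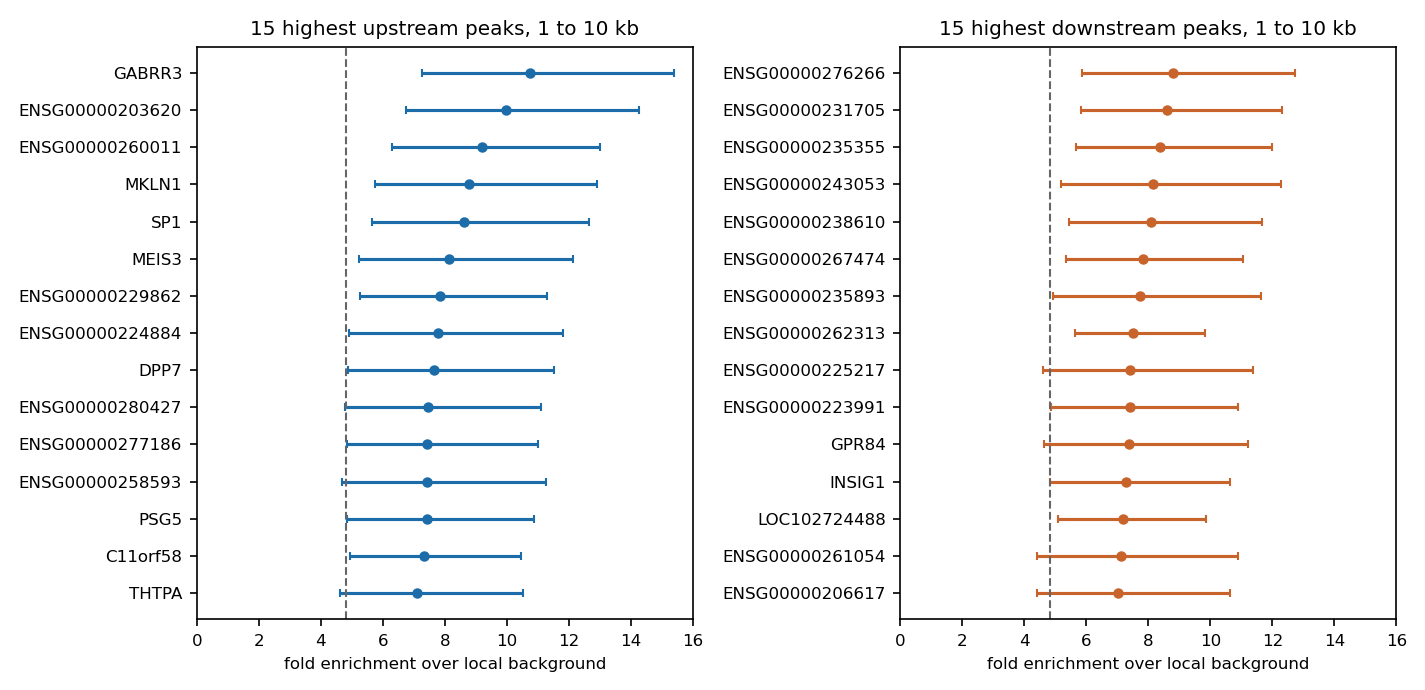
Fold enrichment (horizontal axis) of the 15 highest peaks upstream (left) and downstream (right), named by the assigned gene; points are peaks, bars are 95% Poisson intervals of the fragment count and the dashed line is the median of all peaks. Intervals overlap throughout each panel, from 10.8 down to 7.12 upstream and from 8.79 down to 7.01 downstream.

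Genes of blood and of the mast cell programme were looked up from lists chosen with earlier results of these data known. Of 34 haematopoietic and leukaemia factors, 8 were assigned a peak, and for 2 of them it lay 1 to 10 kb away. GATA2, the transcription factor set against MECOM in the study's title, had its peak 2819 bp upstream, on chromosome 3 from 128496004 to 128496437 (6.40-fold, 4.29 to 9.20). It overlapped the antisense gene GATA2-AS1 and lay 2803 bp from the RefSeq start. BCL11A, the repressor of fetal globin, had one 1337 bp upstream (3.88-fold, 2.42 to 5.96). That peak lay 980 bp from the RefSeq start of BCL11A, so within 1 kb of it. GATA2 was also the 1 such gene among 2 mast cell genes with a peak, out of 22. Over all 2285 symbols with a peak, 179 (7.83%) had one in this range, so counts this small show nothing particular to a list. These counts used the assigned gene. Upstream peaks assigned elsewhere also lay over genes of the first list, among them SPI1 (4.85-fold, assigned to MYBPC3) and MEIS1 (4.97-fold, assigned to ENSG00000226819). The MEIS1 peak lay 119 bp from the start of that gene.

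Among growth control genes, 1 of the 9 immediate early and ERK feedback genes with a peak had it in this range. This was FOS, the AP-1 subunit, at 1194 bp upstream (6.54-fold, 4.07 to 10.0). Of 7 cell cycle and apoptosis genes with a peak there were 2, CCND2 at 3744 bp (4.15-fold, 2.35 to 6.89) and CCND1 at 1758 bp upstream (3.49-fold, 2.12 to 5.48), both D-type cyclins of G1. CHD4, the remodelling subunit of the NuRD complex, was 1 of 7 corepressor and chromatin genes with a peak. Its peak lay 6603 bp upstream (5.93-fold, 3.48 to 9.55) and over the start of LOC105369631. The TGF-beta and BMP list had 10 genes with a peak, the PRDM list 3 and the kidney list 6, and in each list 0 lay in this range by assigned gene. BMP4, a ligand of the first of these lists, nevertheless held a peak of 6.30-fold that the table assigned to MIR5580.

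Of 9 HOX genes with a peak, HOXB2 had one 1695 bp upstream (4.39-fold, 2.62 to 6.97), over the antisense gene HOXB-AS1, and HOXD4 one 4466 bp downstream (4.83-fold, 3.07 to 7.26), over HOXD3. Among zinc finger genes 1 of 42 with a peak was in range, ZNF579 at 8625 bp downstream (5.19-fold). Solute carriers gave 2 of 45, SLC27A5 (3.18-fold), whose peak crossed the start of ZBTB45, a repressor gene, and SLC44A5, a choline transporter-like gene with the lowest upstream fold (2.57, 1.72 to 3.73).

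Other genes with a symbol were picked after their values were seen, for what they do. Among blood cell genes, CD300LB, a myeloid receptor gene, had a peak 6072 bp downstream (5.24-fold, 3.49 to 7.59), and GP1BB, a platelet adhesion receptor gene, 6236 bp downstream (4.53-fold, 2.99 to 6.60). INPP5D, which encodes the phosphatase SHIP1 of blood cells, had one 3752 bp upstream (5.82-fold, 3.42 to 9.36). None of these intervals lay wholly above the list median of 4.82.

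Some developmental transcription factor genes, also picked after their values were seen and not counted against all genes, follow. Upstream peaks were assigned to TBR1, a cortical neuron factor (1392 bp, 5.19-fold), EN1, a midbrain and limb factor (7698 bp, 5.05-fold), CDX1, an intestinal homeobox factor (4071 bp, 5.31-fold), FOXB2 (7063 bp, 4.98-fold) and SOX4 (4338 bp, 3.51-fold). Downstream peaks were assigned to DLX2, a forebrain interneuron factor (3369 bp, 5.21-fold), NHLH2, a hypothalamic factor (6913 bp, 4.00-fold) and SOX21 (1134 bp, 3.77-fold). The peaks of TBR1, EN1, CDX1, FOXB2, SOX4, DLX2 and NHLH2 lay over 1 kb from any other RefSeq gene, and that of SOX21 crossed the start of LINC00391. All of these values lay between the extremes of their groups, and none had an interval wholly above the list median. Starts of further regulators lay under peaks assigned elsewhere, among them TET3, a DNA demethylation enzyme gene (4.54-fold), and KANSL3, a subunit gene of a histone acetyltransferase complex (3.78-fold).

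MicroRNA genes were the assigned genes of 9 upstream and 2 downstream peaks. MicroRNAs are short RNAs that repress messenger RNAs through their seed, bases 2 to 8. The 3 best known of these were named after their values were seen, and their main mature forms from RefSeq (GRCh38.p14) follow with the seed in capitals; their seeds differ from each other.

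hsa-miR-125b-5p of MIR125B2: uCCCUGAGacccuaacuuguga
hsa-miR-148a-3p of MIR148A: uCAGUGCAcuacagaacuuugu
hsa-miR-99b-5p of MIR99B: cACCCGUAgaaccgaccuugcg

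MIR125B2, whose product acts in blood stem cells and leukaemia, had a peak 1688 bp upstream on chromosome 21 from 16588174 to 16588549 (5.56-fold, 3.21 to 9.08), within its host transcript MIR99AHG. MIR148A had one 2571 bp upstream on chromosome 7 (4.45-fold, 2.57 to 7.26). MIR99B had a weak one 3291 bp upstream on chromosome 19 (2.89-fold, 1.80 to 4.43), within SPACA6. A further microRNA peak, that of MIR4673 (5.31-fold, 3.30 to 8.15), lay within NOTCH1, a receptor gene of T cell leukaemia.

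Transfer RNA genes lay close to many of these peaks. Of 69 peaks in the list within 1000 bp of a transfer RNA gene, 28 (40.6%) were 1 to 10 kb from their assigned gene, while such peaks made up 11.8% of the list. They were 13 upstream peaks (5.06%, 2.72 to 8.49) and 15 downstream peaks (9.80%, 5.59 to 15.7), against 1.99% of all peaks. Peaks over 10 kb from their gene were near transfer RNA genes in 2.33% of cases upstream (0.94 to 4.73) and 5.31% downstream (2.68 to 9.31). In both directions these intervals overlap those at 1 to 10 kb. None of these differences was tested. Only genes that RefSeq types as transfer RNA were counted, not transfer RNA pseudogenes. Of the 28, 16 were on chromosome 6, where they ran from 26312421 to 27671675, and 8 on chromosome 1. A transfer RNA gene was overlapped by 7 upstream and 9 downstream peaks. Their fold was ordinary, with medians of 4.71 and 4.83 and a highest value of 7.42. Transfer RNA genes are repeated in near-identical copies, as are the small nuclear RNA genes RNVU1-31, RNVU1-29 and RNVU1-27 beside 3 of the peaks, so reads could have been placed at the wrong copy and these peaks are uncertain. The same holds for a pair of upstream peaks on chromosome 7, within RASA4B (7.02-fold, 56 fragments) and its near-identical neighbour RASA4 (6.98-fold, 44 fragments), at 4707 and 4709 bp from their assigned genes.

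Most genes had 1 such peak. The upstream peaks were spread over 248 genes and the downstream peaks over 146, and 4 genes had one on each side. POU3F2, a neural transcription factor gene, had peaks 9622 bp upstream (5.63-fold, 3.31 to 9.05) and 5688 bp downstream (4.79-fold, 2.94 to 7.43). HMGN4, a nucleosome-binding protein gene, had peaks 1150 bp upstream (4.74-fold) and 6732 bp downstream (4.04-fold), both within 1000 bp of transfer RNA genes. The others, ENSG00000220875 and ENSG00000206671, lie in the same stretch of chromosome 6. ENSG00000220875 also had 3 upstream peaks, the most of any gene, from 3.86 to 5.67-fold. Repeated upstream peaks were found at 8 genes, among them ZFHX4, a homeobox zinc finger gene (5.76 and 5.93-fold), LINC01987 (4.59 and 5.13), ENSG00000228439, ENSG00000228532, ENSG00000248576, ENSG00000278332 and ENSG00000279599. Downstream there were 7 such genes, none with a symbol, and the highest value among them was the 7.74-fold peak of ENSG00000235893. Another peak of any class lay within 10000 bp of 59 upstream and 27 downstream peaks.

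By chromosome, these peaks were most numerous on chromosome 1, with 58 of its 476 peaks, and chromosome 6, with 47 of 300. As a share of a chromosome's peaks they ran from 4.59% on chromosome 8 (5 of 109) to 24.2% on chromosome 21 (8 of 33).

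At the limits of the range, heights inside and outside overlapped. Just outside the lower limit upstream were EGR1, an immediate early gene (974 bp, 5.49-fold), INTS6L-AS1 (981 bp, 5.67) and OBI1 (994 bp, 5.25). Just inside were SNORA24B (1003 bp, 3.33-fold), whose peak crossed the start of PARP16, MAGI2 (1018 bp, 5.93) and HSP90AA1, the gene of the stress-inducible HSP90 (1031 bp, 6.30). The MAGI2 and HSP90AA1 peaks lay 925 and 981 bp from the RefSeq starts of these genes, so within 1 kb of them. The MAGI2 peak also overlapped MAGI2-AS3, and the HSP90AA1 peak overlapped WDR20. Inside the upper limit upstream were peaks of 5.40, 5.56 and 6.76-fold at 9807 to 9902 bp, and outside it that of ERFL at 10003 bp (7.05-fold) and others of 3.83 and 4.69. Downstream, the lower limit had peaks of 5.02, 3.61 and 4.57-fold at 787 to 961 bp outside it. Inside it were peaks of 4.82 and 5.45-fold and that of NRN1, a neurite outgrowth gene (1122 bp, 4.52). At the upper limit the values were 5.93, 8.79 and 3.13-fold inside and 6.30, 3.73 and 4.32 outside.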

How the data were processed

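The list used is that of the wild-type ChIP-seq library, a match that rests on its name. The submitters' processing notes name hg38, the aligner Bowtie2 2.4.2, the annotation tool ChIPseeker 1.18.0, HOMER 4.10 and the peak caller MACS2 2.1.1.20160309.6, without saying which made this table. The deposited table has no header. Its columns hold a fold enrichment ratio, −log10 p and −log10 q values, and a score equal to the whole part of 10 times −log10 q, all set by the authors' peak caller. The lowest −log10 q was 2.00. The table gave 3465 lines for 3462 peaks. The number of value columns matched to no group was 0.

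Fragments and background were solved for every peak as whole fragments with (fragments + 1)/(background + 1) equal to the fold and a Poisson tail equal to the −log10 p (tolerance 0.001, or 1e-05 of the value). This held for 3462 peaks, and 435 of 435 simulated peaks were recovered when tested. Intervals on fold are exact 95% Poisson intervals with the background fixed. Intervals on shares are exact Clopper-Pearson intervals that take peaks as independent. Both cover counting error only. Read totals were not used here, so depth is known only as fragments per peak.

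Gene spans, starts and sequences came from RefSeq on GRCh38.p14. Promoter windows on chromosome 8 were not used here. A RefSeq gene counted as the assigned one by Ensembl identifier or symbol. No test was run. The regions, lists and motifs were chosen with earlier results of these data known. Named peaks were the 15 highest in each direction, all in the lists, genes with 2 or more, the 3 nearest each limit on either side, and up to 10 at another gene's start by fold; some that the rule takes are given only as counts or are not reported here. A planned motif search of whole peaks was limited to promoter windows. Alternatives are given in the closing section. Python 3.11.15, pandas 2.3.3, numpy 2.4.6 and scipy 1.17.1 were used.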

Additional observations from a re-analysis of the deposited data

How the results depend on the processing

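Of 60 values under 6 alternative settings, 50 stayed within the 95% interval of the reported value and 10 moved outside it. At a −log10 q of at least 5, median fold was 5.75 upstream and 5.58 downstream, and 64.3% of downstream peaks overlapped another gene. Among peaks at or above the list's median fold, the medians were 5.71 and 5.58, and upstream peaks were 8.65% of annotated peaks. Both settings keep higher peaks by construction. With distance taken from the gene start, the shares of annotated peaks were 8.86% upstream and 3.77% downstream, and 82.9% of downstream peaks had no symbol. With a lower limit of 2000 bp the upstream share was 5.56%, since fewer peaks qualify. Merging peaks less than 1000 bp apart and keeping autosomes moved none of the 10 values outside its interval. No paired analysis was possible because only the wild-type list was used, from 1 library. A median of 16 to 17 fragments limits the ranking of single peaks.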
